A study of Mus musculus with 15 samples.

Results

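Cajal-Retzius cell marker genes were followed in the foetal mouse cortex and in cultured cortical neurons with and without PHF6, a chromatin-associated plant homeodomain protein encoded on the X chromosome. The set was a fixed list of 10 genes, *Trp73*, *Lhx1*, *Lhx5*, *Calb2*, *Ebf2*, *Ebf3*, *Ndnf*, *Nhlh2*, *Cxcr4* and *Eya2*, out of 23132 genes kept from the count table, and *Reln* was left out of the list by its rule. The list was applied by gene symbol without a cut on measured values, but its members were chosen with earlier results of these data known. Shares of members called, set beside those of all genes, are therefore descriptions. All 15 libraries were polyA RNA-seq of males on the C57BL/6 background.

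Cortex was dissected at E15.5 from 3 Phf6 +/Y controls and from 5 Phf6 -/Y foetuses, which carried a germline deletion of exons 4 and 5 made with a Cre-deleter strain. Dissected cortex is a mixture of cell types. Neurons were prepared from the E16.5 cortex and cultured from 3 controls, Phf6 +/Y NesCre T/+, and from 4 Phf6 lox/Y NesCre T/+ foetuses. Both neuron groups therefore carried the *Nestin-cre* transgene, which is active in the developing nervous system, and the controls lacked the floxed allele. The cortex libraries came from litters 1, 2 and 3, each with 1 control, and the neuron libraries from litters 4, 5, 6 and 7, of which litter 7 held a Phf6-deleted culture and no control. Groups are called control and Phf6-null for cortex, and control and Phf6-deleted for neurons.

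Cajal-Retzius cells are among the first neurons to be born in the cortex. They arise at its borders, including the cortical hem, the septum and the thalamic eminence, spread over the surface beneath the meninges, and secrete reelin, which guides the layering of later-born neurons. The genes followed here are not particular to these cells. *Calb2* and *Cxcr4* also mark migrating interneurons, *Lhx1*, *Lhx5* and the *Ebf* genes are expressed in the diencephalon, and *Ndnf* is used as a marker of interneurons of the outermost layer. In bulk RNA, fewer cells of a type and less RNA per cell cannot be told apart.

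The libraries held between 16858007 and 31157700 counts. *Phf6* itself was 172 ± 21.2 CPM (read counts scaled to library size; SD, n = 3) in control cortex and 48.0 ± 5.83 (n = 5) in Phf6-null cortex, and 247 ± 16.8 (n = 3) in control neurons and 70.6 ± 11.2 (n = 4) in Phf6-deleted neurons, so the genotypes were separated in every library. The remaining counts are those of the whole gene, undeleted exons included. Phf6-null cortex replicate 1 stood apart from the other cortex libraries. The summed level of 9 genes of the diencephalon and thalamic eminence was 459.9 CPM in that library and between 40.36 and 64.6 CPM in the other cortex libraries. All 9 of those genes had counts in it, as in Phf6-null replicate 4, and 1 to 4 of them were at 0 in each control cortex. The cortex fold changes of the marker genes and of the single list genes named are therefore given with and without this library.

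Positions are those of RefSeq genes on GRCm38.p6, the assembly behind the mm10 build of the counts, matched by Entrez identifier. *Trp73* (Entrez 22062, the p53 relative p73, needed for the survival of Cajal-Retzius cells) lies on chromosome 4 from 154056249 to 154139875. The LIM homeodomain genes *Lhx1* (16869) and *Lhx5* (16873) lie on chromosome 11 from 84517975 to 84525534 and on chromosome 5 from 120431886 to 120441457. *Ebf2* (13592) and *Ebf3* (13593), which encode helix-loop-helix transcription factors of the EBF family, lie on chromosome 14 from 67233292 to 67430952 and on chromosome 7 from 137193671 to 137322805. *Nhlh2* (18072), a neuronal basic helix-loop-helix factor, lies on chromosome 3 from 102010111 to 102015492, and *Eya2* (14049), a phosphatase and transcriptional co-activator that works with sine oculis-type homeodomain factors, on chromosome 2 from 165595028 to 165771727. The other members encode proteins outside the nucleus or calcium buffers. *Calb2* (12308, calretinin, a calcium-binding protein) lies on chromosome 8 from 110142526 to 110168212, *Ndnf* (68169, a secreted factor) on chromosome 6 from 65671611 to 65712323, and *Cxcr4* (12767, the chemokine receptor through which meningeal CXCL12 holds Cajal-Retzius cells at the surface) on chromosome 1 from 128588199 to 128592299. Counts were summed over the exons of each gene, so transcripts of 1 gene from different start sites were not separated.

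RefSeq promoter entries on the same assembly were matched by symbol for 5 of the 10 members, *Trp73*, *Lhx1*, *Ebf3*, *Nhlh2* and *Cxcr4*. The 250 bases before the start are printed for *Trp73*, whose upstream start and internal start feed a single count here, for *Lhx1*, the member that differed most between cortex libraries, and for *Cxcr4*, a member with almost the same level in control and Phf6-null cortex. Capitals mark matches, on either strand, to 4 short patterns: an EBF core (TCCC and GGGA with any 2 bases between them), an E-box (CAGCTG), a homeodomain core (TAATTA) and a GC box (GGGCGG).
Trp73 upstream start, chr4:154139876-154140125, minus strand: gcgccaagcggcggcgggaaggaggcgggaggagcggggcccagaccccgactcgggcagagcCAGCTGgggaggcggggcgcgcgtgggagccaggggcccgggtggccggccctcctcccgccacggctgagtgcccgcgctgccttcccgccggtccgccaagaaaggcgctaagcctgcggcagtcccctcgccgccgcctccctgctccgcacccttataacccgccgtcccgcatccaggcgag
Trp73 internal start, chr4:154097174-154097423, minus strand: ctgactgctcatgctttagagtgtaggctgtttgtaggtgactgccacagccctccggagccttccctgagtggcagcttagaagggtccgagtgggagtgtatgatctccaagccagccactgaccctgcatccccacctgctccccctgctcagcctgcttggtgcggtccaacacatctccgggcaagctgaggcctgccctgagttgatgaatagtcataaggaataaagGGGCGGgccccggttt
Lhx1, chr11:84525535-84525784, minus strand: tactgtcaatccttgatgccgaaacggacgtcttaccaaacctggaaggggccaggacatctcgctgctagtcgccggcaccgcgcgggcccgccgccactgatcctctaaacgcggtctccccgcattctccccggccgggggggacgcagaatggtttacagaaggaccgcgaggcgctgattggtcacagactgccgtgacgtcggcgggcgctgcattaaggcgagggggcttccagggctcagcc
Cxcr4, chr1:128592300-128592549, minus strand: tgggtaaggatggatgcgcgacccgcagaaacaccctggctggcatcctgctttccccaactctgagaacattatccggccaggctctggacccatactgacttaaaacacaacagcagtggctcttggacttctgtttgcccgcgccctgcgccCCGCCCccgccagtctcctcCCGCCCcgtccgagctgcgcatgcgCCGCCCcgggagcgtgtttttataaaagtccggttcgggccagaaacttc

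The *Trp73* windows differed in composition, with 77.2% G and C before the upstream start and 58.4% before the internal start, which lies within the span of the gene. The first held 1 E-box and the second 1 GC box. The *Lhx1* window (64.8% G and C) held no match to the 4 patterns, and the *Cxcr4* window (61.2%) held 3 GC boxes. The windows of *Ebf3* (80.0% G and C, 3 GC boxes) and *Nhlh2* (42.0%, no match) are not printed. Both overlapped the counted gene span, by 250 and 34 bases, as did the printed window of the internal *Trp73* start, by 250 bases. Among 32851 windows of the same length, 32.7% held a GC box, 13.0% an E-box, 4.84% a homeodomain core and 0.779% an EBF core, and no 2 matches in the printed windows overlapped. A match is a run of letters only. *Lhx5*, *Calb2*, *Ebf2*, *Ndnf* and *Eya2* had no entry.

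Levels between genes were compared as RPKM, the CPM divided by the exon length of the gene in kilobases. In control cortex *Cxcr4* was the highest of the 10 members at 17.9 ± 1.90 RPKM (SD, n = 3), followed by *Calb2* at 10.6 ± 2.1 and *Nhlh2* at 9.79 ± 0.867, and *Reln* stood at 20.4 ± 1.41. The ranges of *Reln* and *Cxcr4* overlapped, as did those of *Calb2* and *Nhlh2*, whereas *Cxcr4* was above *Calb2* and *Nhlh2* above *Trp73* in every control cortex. Below them came *Trp73* at 4.30 ± 1.11, *Lhx5* at 3.37 ± 1.495, *Ebf3* at 2.85 ± 0.683, *Lhx1* at 2.1 ± 0.544, *Ndnf* at 1.79 ± 0.519 and *Eya2* at 1.48 ± 0.347, and neighbours in that order overlapped throughout. *Ebf2* was lowest at 0.709 ± 0.236, below every *Eya2* value.

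Cultured control neurons held less of most markers than control cortex. *Trp73*, *Lhx1*, *Lhx5*, *Ebf2*, *Ebf3*, *Nhlh2*, *Cxcr4* and *Eya2*, 8 of 10 members, were lower in neurons at a false discovery rate (FDR) below 0.05, the Benjamini-Hochberg adjusted p of edgeR's quasi-likelihood test over all genes. Among all 14320 genes tested, 26.4% were called lower and 24.7% higher, so such calls were common in this comparison. The 2 exceptions were *Calb2* and *Ndnf*. Tissue, age, culture and the *Nestin-cre* transgene differ together between these groups and cannot be told apart.

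*Ebf2*, *Lhx5*, *Lhx1* and *Trp73* had the largest differences of the members. *Lhx5* was 13.9, 7.41 and 6.33 CPM in the 3 control cortices and 1.72, 1.62 and 1.89 CPM in the 3 control neuron cultures. *Lhx5* was thus 5.31-fold lower in neurons (log2 fold change -2.41, SE 0.31, FDR = 3.09e-05, edgeR). *Lhx1* was 5.04-fold lower (log2 fold change -2.33, SE 0.36, FDR = 0.000118) and *Trp73* 4.22-fold lower (-2.08, SE 0.23, FDR = 2.08e-05). *Ebf2* was nearly absent from the cultures. It had 51 to 130 counts in control cortex, and 0, 0 and 5 counts in the 3 control neuron cultures, and its fitted log2 fold change of -5.46 (SE 0.78, FDR = 9.68e-05) rests on those 5 counts.

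The remaining members fell less. *Eya2* was 2.62-fold lower in control neurons (log2 fold change -1.39, SE 0.35, FDR = 0.00492), *Ebf3* 1.89-fold (-0.92, SE 0.22, FDR = 0.00387), *Nhlh2* 1.75-fold (-0.81, SE 0.15, FDR = 0.000534) and *Cxcr4* 1.38-fold (-0.47, SE 0.14, FDR = 0.0121). *Cxcr4* was past the threshold in 3 of 6 fits that left out a library, and had an FDR of 0.0506, 0.0616 and 0.0621 without control cortex replicate 3, control neuron replicate 2 and control neuron replicate 3. *Calb2* (log2 fold change -0.15, SE 0.29, FDR = 0.692) and *Ndnf* (-0.24, SE 0.35, FDR = 0.599) were not distinguished from their cortex level. Without control neuron replicate 1, the culture with the highest *Calb2* level (20.65 CPM), *Calb2* was also called lower (log2 fold change -0.59, FDR = 0.0168). *Reln* was 2.41-fold lower (FDR = 0.00018), which lies within the range of the members.

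**Figure D1:**
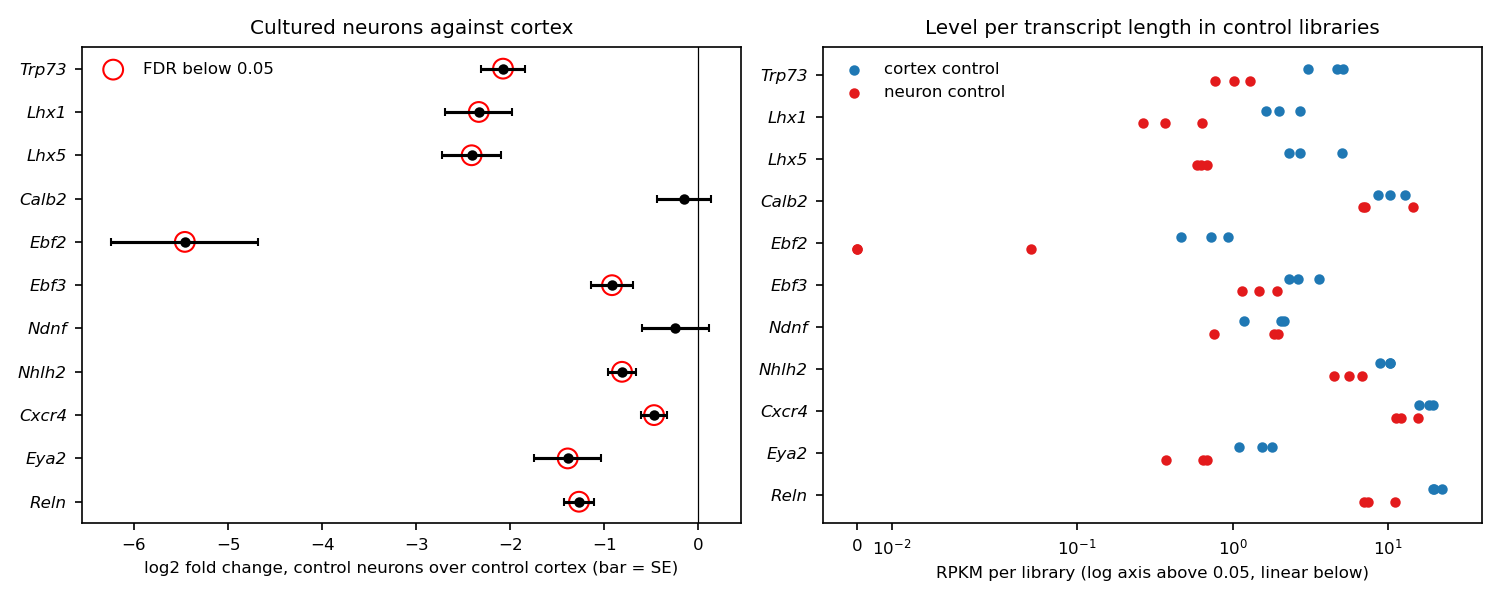
Left, log2 fold change of each marker gene in control neurons over control cortex, with bars for the SE and red rings for an FDR below 0.05 (edgeR). Right, RPKM in each of the 3 control cortices (blue) and 3 control neuron cultures (red), on an axis that is logarithmic above 0.05 and linear below. *Ebf2* is at 0 in 2 cultures, and *Calb2* and *Ndnf* are the members whose groups are not separated.

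Genes of other cell types also differed in summed level, in both directions. Endothelial genes summed to between 158.2 and 189.5 CPM in control cortex and between 3.737 and 4.342 CPM in control neurons, and the 8 genes of inhibitory interneurons to between 659.9 and 829 CPM and between 177.8 and 260.2 CPM. All 6 endothelial, all 8 interneuron and all 7 progenitor genes were called lower in neurons, as were 5 of 6 further genes linked to Cajal-Retzius cells, and the remaining one, *Spock1*, was called higher (log2 fold change 0.85, SE 0.14, FDR = 0.000458). The 7 genes of projection neurons summed to between 3707 and 3907 CPM in control cortex and between 5176 and 5325 CPM in control neurons, with 4 called higher and 3 called lower. Of the 10 genes of the cortical hem tested, 2 (*Rspo2* and *Rspo3*) were called higher in neurons and 7 lower. The part of each in the members' lower level was not tested.

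In the cortex, *Lhx5* and *Calb2* were higher without PHF6, by 1.71-fold and 1.48-fold. They were 2 of 10 members called higher, and 0 of 10 were called lower, where 0.319% of 14750 genes were called higher and 0.0678% lower. All 10 members passed the filter on low counts. Of them, 9 had a positive log2 fold change and the median was 0.30, beside 49.4% positive and a median of -0.0021 over all genes tested. At an unadjusted p below 0.05, by edgeR, 3 members were higher, the third being *Ebf3*, and 0 lower, where 5.69% of genes were higher. Neither call held when Phf6-null replicate 1 was left out. That replicate was the only Phf6-null library of litter 3, so leaving it out also took this litter out of the estimate. The fit without control replicate 1, of the same litter, lost both calls too. Its log2 fold changes were 0.69 for *Lhx5* (FDR = 0.236) and 0.51 for *Calb2* (FDR = 0.222), by edgeR. The part of the lost litter and of that replicate's RNA in the lost calls was not tested.

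*Calb2* was 14.7, 18.3 and 12.3 CPM in the 3 control cortices and 23.9, 23.9, 25.97, 17.35 and 19.9 CPM in the 5 Phf6-null cortices. The groups overlapped, but 4 Phf6-null libraries were above every control, and within each litter the Phf6-null mean was above the control, by 0.58, 0.44 and 0.69 on the log2 scale in litters 1, 2 and 3. The fitted log2 fold change was 0.56 (SE 0.11, FDR = 0.0393, edgeR with litter as a term). Without Phf6-null replicate 1 it was 0.52 (SE 0.13, FDR = 0.191), and over all 8 fits that left out a library it ranged from 0.51 to 0.64. It passed the threshold without Phf6-null replicate 4 or 5 (FDR = 0.0375 and 0.0476) and missed it without any other library, with an FDR between 0.076 and 0.222. Genes of interneurons, which also express *Calb2*, summed to between 659.9 and 829 CPM in controls and between 696.5 and 767.6 CPM in Phf6-null cortex, and 0 of 8 were called. Their part in the *Calb2* level was not tested.

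*Lhx5* was 13.9, 7.41 and 6.33 CPM in control cortex and 27.2, 13.7, 12.5, 10.6 and 8.07 CPM in Phf6-null cortex. Only replicate 1 was above every control, and the difference appeared within litters, where the Phf6-null mean exceeded the control by 0.53, 0.80 and 0.96 on the log2 scale in litters 1, 2 and 3. The fitted log2 fold change was 0.77 (SE 0.14, FDR = 0.0368, edgeR with litter as a term), and 0.69 (SE 0.18, FDR = 0.209) without Phf6-null replicate 1. Over the 8 fits that left out a library it ranged from 0.69 to 0.88, and passed the threshold without Phf6-null replicate 5 only (FDR = 0.00567, against 0.0521 to 0.236 without each of the others). *Lhx5* also differed between litters (FDR = 0.00298) and was the 1 member of 10 called in that test, where 1.7% of genes were called. Without Phf6-null replicate 1, 0 members were called between litters. With the litter term left out, *Lhx5* and *Calb2* were both short of the threshold (FDR = 0.820 and 0.528).

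*Lhx1*, *Ebf2*, *Ebf3* and *Nhlh2*, which encode other transcription factors of the set, were not called and were highest in 1 library. *Lhx1* was 7.41, 5.47 and 4.47 CPM in controls, 25.3 CPM in Phf6-null replicate 1, and 5.13, 4.35, 4.15 and 2.93 CPM in Phf6-null replicates 2 to 5. Of those, replicates 3, 4 and 5 were below every control, so the log2 fold change of 0.29 (SE 0.39, FDR = 0.856) turned to -0.27 (SE 0.24, FDR = 0.823) without replicate 1. *Ebf3* showed the widest gap in CPM, at 56.9 CPM in replicate 1 and between 11.53 and 18.14 CPM in the other 7 cortices. *Nhlh2* was 69.7 CPM there against 29.1 to 38.3 CPM elsewhere, and *Ebf2* 11.3 CPM against 2.02 to 4.07 CPM.

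Without that library these genes moved closer to their controls. The log2 fold change of *Ebf3* went from 0.66 (SE 0.26, FDR = 0.451) to 0.28 (SE 0.14, FDR = 0.625), that of *Ebf2* from 0.58 (SE 0.30, FDR = 0.548) to 0.22 (SE 0.33, FDR = 0.925), and that of *Nhlh2* from 0.29 (SE 0.19, FDR = 0.660) to 0.03 (SE 0.12, FDR = 0.974). Of the 10 members, 5 had their highest cortex level in replicate 1, namely *Lhx1*, *Lhx5*, *Ebf2*, *Ebf3* and *Nhlh2*. *Cxcr4* had its lowest level there, at 28.3 CPM. The diencephalic list moved in the same library, as given above, while projection neuron genes summed to 2682 CPM in it and to between 3571 and 4086 CPM in the other cortices. Within the diencephalic list, *Lhx9*, a LIM homeodomain gene of the thalamus, was 79.3 CPM there against 12.79 to 24.39 CPM elsewhere in cortex, and *Dbx1*, a homeodomain gene of progenitor domains, was 12.7 CPM against 0 to 0.907 CPM. The part of that library's diencephalic RNA in these levels was not tested.

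**Figure D2:**
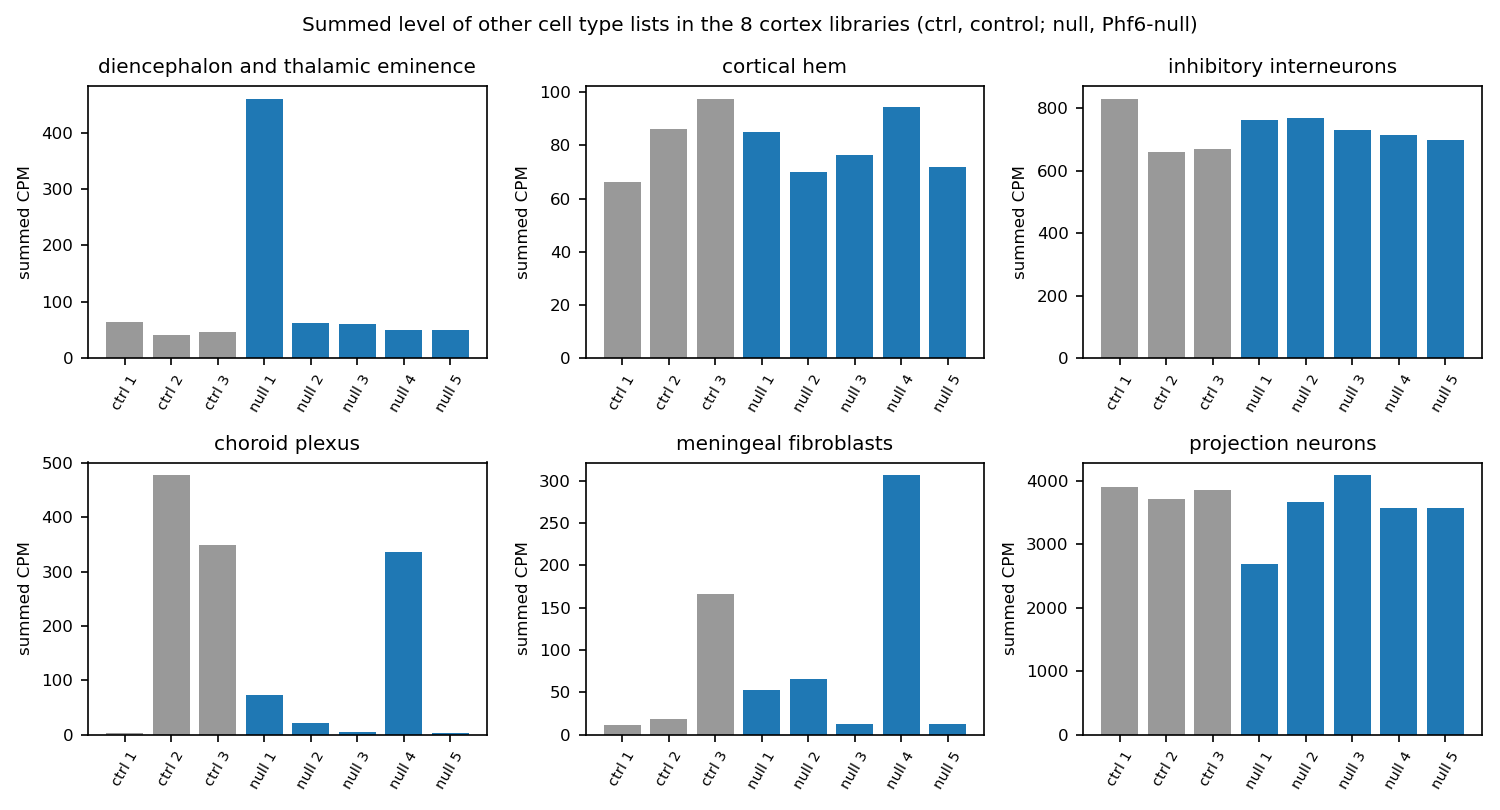
Summed CPM of 6 lists of genes of other cell types in each of the 8 cortex libraries, grey for control and blue for Phf6-null. The diencephalic list is 459.9 CPM in Phf6-null replicate 1 and at most 64.6 CPM elsewhere, projection neuron genes are lowest in the same library, and choroid plexus and meningeal genes vary widely within both genotypes.

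*Trp73* was not raised in that library. It was 27.4, 16.2 and 25.1 CPM in control cortex and 17.3, 20.9, 27.5, 28.6 and 24.7 CPM in Phf6-null cortex, with replicate 1 the lowest of the Phf6-null libraries. The groups overlapped, with a log2 fold change of 0.04 (SE 0.21, FDR = 0.967), and of 0.32 (SE 0.15, FDR = 0.586) without replicate 1. *Reln* too was not raised there. It was 185 CPM in replicate 1, the lowest of all cortices, and between 301.5 and 355 CPM in the other Phf6-null cortices against 227.9 to 257.8 CPM in controls. Its log2 fold change was 0.22 (SE 0.12, FDR = 0.603) with replicate 1, and 0.42 (SE 0.076, FDR = 0.0398) without it, the one fit of 8 leaving out a library in which it was called.

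Of the remaining members, *Ndnf* was 5.57, 9.94 and 9.59 CPM in control cortex and 9.16, 9.86, 8.63, 14.1 and 11.96 CPM in Phf6-null cortex. The groups overlapped (log2 fold change 0.30, SE 0.17, FDR = 0.561, and 0.16, SE 0.18, without replicate 1). *Cxcr4* was 32.4 ± 3.45 CPM (SD, n = 3) in controls and 33.3 ± 4.64 CPM (n = 5) in Phf6-null cortex, with a log2 fold change of 0.0045 (SE 0.11, FDR = 0.995), and of 0.10 (SE 0.13) without replicate 1. *Eya2* was 3.50 ± 0.820 CPM in controls and 3.30 ± 1.18 CPM in Phf6-null cortex (log2 fold change -0.07, SE 0.27, FDR = 0.956, and -0.04, SE 0.32, without replicate 1). The SE was widest for *Lhx1*, *Ebf2*, *Eya2* and *Ebf3*, at 0.26 to 0.39, and narrowest for *Calb2* at 0.11.

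With Phf6-null replicate 1 left out, 0 of 10 members were called in the cortex by edgeR, where 0.102% of genes were called higher and 0.0136% lower. At an unadjusted p below 0.05, by the same test, 3 members were higher, *Trp73*, *Lhx5* and *Calb2*, and 0 lower, where 5.3% of genes were higher at that p. The median log2 fold change of the members was 0.19 and 8 of 10 were positive, the exceptions being *Lhx1* and *Eya2*. Over all genes tested, 51.9% were positive and the median was 0.0078. Other lists had similar or larger medians in this fit, at 0.18 for interneuron, 0.23 for endothelial and 0.35 for meningeal genes. The median was -0.47 for hem, -2.19 for choroid plexus, -0.018 for projection neuron and -0.04 for progenitor genes.

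**Figure D3:**
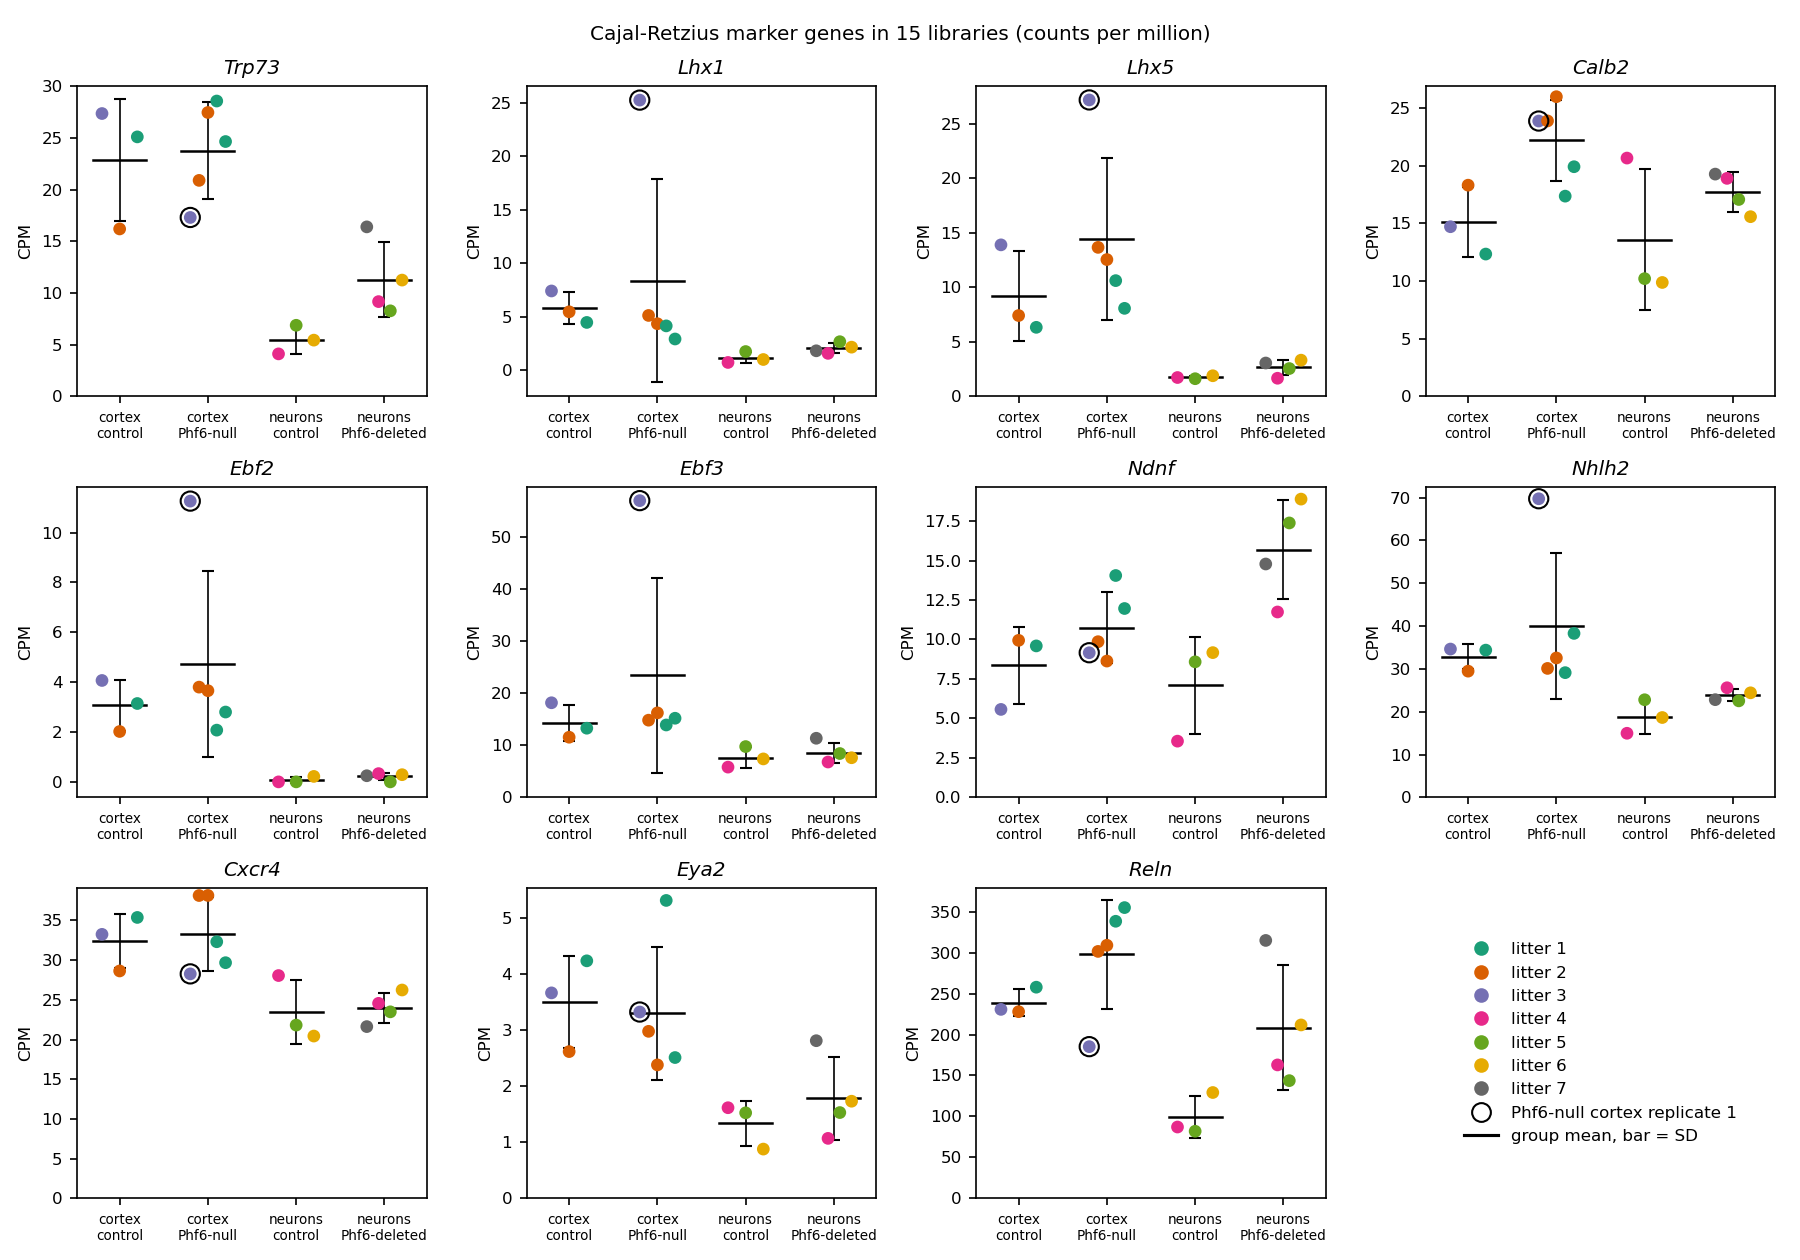
CPM of the 10 marker genes and *Reln* in each of the 15 libraries, coloured by litter, with a line at each group mean and bars for the SD. The ringed library, Phf6-null cortex replicate 1, is highest in cortex for *Lhx1*, *Lhx5*, *Ebf2*, *Ebf3* and *Nhlh2* and lowest for *Reln* and *Cxcr4*. In neurons the Phf6-deleted cultures lie above all 3 controls for *Trp73*, *Ndnf* and *Reln*.

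In neurons, *Ndnf* was 2.36-fold higher without PHF6. It was 3.56, 8.58 and 9.17 CPM in the 3 control cultures and 14.8, 11.7, 17.4 and 18.9 CPM in the 4 Phf6-deleted cultures. The groups did not overlap, as for 3.61% of all genes tested in the same direction. The increase stood in each litter with both genotypes, at 1.66, 1.00 and 1.02 on the log2 scale in litters 4, 5 and 6. The log2 fold change was 1.24 (SE 0.16, FDR = 0.00386, edgeR with litter as a term), rank 7 by p of 13909 genes. Phf6-deleted replicate 1, from litter 7, adds nothing to this estimate because its litter had no control.

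The *Ndnf* call held in all 7 fits that left out a library, with a log2 fold change between 1.03 and 1.35 and an FDR of at most 0.0078. Leaving out either library of a litter takes the same pair out of the estimate, so these are not 7 separate checks. The call was lost when the litter term was left out (log2 fold change 1.15, FDR = 0.606). *Ndnf* was also the 1 member of 9 that differed between neuron litters (FDR = 0.0303), where 5.01% of genes did. Control replicate 1 and Phf6-deleted replicate 2, both from litter 4, were the lowest of their groups. Interneuron genes summed to between 177.8 and 260.2 CPM in control cultures and between 227.4 and 292.3 CPM in Phf6-deleted cultures. Of the 8, *Sst*, the somatostatin gene, was called higher (log2 fold change 0.92, SE 0.10, FDR = 0.000552) and the other 7 were not called. The part of interneurons in the *Ndnf* level was not tested.

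*Ndnf* was 1 of 9 members tested that was called higher in Phf6-deleted neurons, and 0 were called lower, where 0.194% of genes were called higher and 0.0791% lower. The remaining member, *Ebf2*, had 0 to 9 counts in the 7 cultures and did not pass the filter. All 9 log2 fold changes were positive, with a median of 0.39, beside 50.3% positive and a median of 0.00097 over all genes. At an unadjusted p below 0.05, 5 of 9 members were higher, *Trp73*, *Lhx1*, *Calb2*, *Ndnf* and *Nhlh2*, where 5.87% of genes were. The summed level of the 10 members was between 74.91 and 84.9 CPM in control cultures and between 101.4 and 114.1 CPM in Phf6-deleted cultures.

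*Trp73* came next after *Ndnf*. It was 4.11, 6.88 and 5.44 CPM in control neurons and 16.4, 9.17, 8.27 and 11.3 CPM in Phf6-deleted neurons, again without overlap, as for 3.61% of all genes in the same direction. The difference within litters was 1.11, 0.26 and 1.01 on the log2 scale. The fit gave a log2 fold change of 0.83 (SE 0.19, FDR = 0.105), short of the threshold. It passed without control replicate 2, control replicate 3 or Phf6-deleted replicate 3 (FDR = 0.0457, 0.0486 and 0.0319), and the other fits that left out a library gave an FDR between 0.1 and 0.162. The highest *Trp73* level, in Phf6-deleted replicate 1, belonged to the culture with no control in its litter, which was also the highest for *Reln* (315 CPM), *Ebf3* (11.3 CPM) and *Eya2* (2.81 CPM).

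*Lhx1* and *Lhx5* were scarce in culture. *Lhx1* had 20 to 38 counts in the controls and 37 to 45 in the Phf6-deleted cultures, or 0.734, 1.75 and 1.01 CPM against 1.82, 1.58, 2.67 and 2.16 CPM. It was higher in each of litters 4, 5 and 6, by 0.90, 0.55 and 0.94 on the log2 scale, with a fitted log2 fold change of 0.93 (SE 0.37, FDR = 0.392). *Lhx5*, called in the cortex, was 1.74 ± 0.136 CPM in control neurons (SD, n = 3) and 2.64 ± 0.731 CPM (n = 4) in Phf6-deleted neurons, and its log2 fold change of 0.47 (SE 0.33, FDR = 0.686) was not called at this depth.

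*Calb2* was 20.7, 10.2 and 9.87 CPM in control neurons and 19.3, 18.9, 17.1 and 15.6 CPM in Phf6-deleted neurons. Control replicate 1 was the highest of all 7 cultures, so the groups overlapped, and litter 4 went the other way from litters 5 and 6 (-0.13 against 0.73 and 0.65 on the log2 scale). The log2 fold change was 0.39 (SE 0.16, FDR = 0.400). It ranged from 0.23 to 0.70 as single libraries were left out, and passed the threshold without control replicate 1 (FDR = 0.012) or Phf6-deleted replicate 2 (FDR = 0.0104), the pair of litter 4. *Nhlh2* was 18.8 ± 3.92 CPM in controls and 23.8 ± 1.43 CPM in Phf6-deleted neurons (log2 fold change 0.39, SE 0.13, FDR = 0.302).

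*Ebf3*, *Cxcr4* and *Eya2* showed the smallest differences in neurons. *Ebf3* was 7.63 ± 1.98 CPM in control and 8.52 ± 1.98 CPM in Phf6-deleted cultures (log2 fold change 0.02, SE 0.17, FDR = 0.984). *Cxcr4* was 23.4 ± 4.06 CPM and 24.0 ± 1.93 CPM (0.08, SE 0.12, FDR = 0.876), and *Eya2* 1.34 ± 0.402 CPM and 1.78 ± 0.737 CPM (0.10, SE 0.42, FDR = 0.965). *Eya2* had 20 to 57 counts in each culture, and its SE was the widest of the 9.

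*Reln*, the secreted product by which Cajal-Retzius cells are known, was 1.75-fold higher in Phf6-deleted neurons (log2 fold change 0.81, SE 0.06, FDR = 1.4e-05). It was higher in each litter, by 0.90, 0.81 and 0.71 on the log2 scale.

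**Figure D4:**
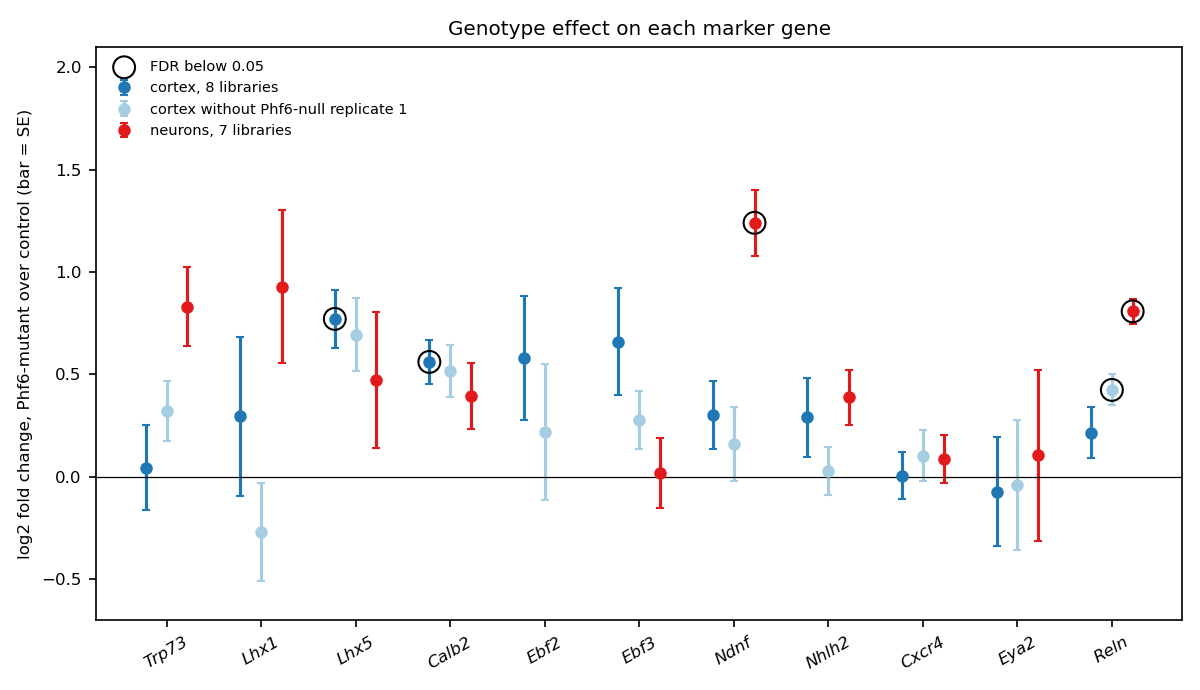
Log2 fold change of each marker gene and *Reln*, Phf6-mutant over control, in all 8 cortex libraries (dark blue), in cortex without Phf6-null replicate 1 (light blue) and in neurons (red). Bars are the SE and black rings mark an FDR below 0.05 (edgeR). *Lhx5* and *Calb2* are ringed in cortex with all libraries, *Ndnf* in neurons, and *Reln* in neurons and in cortex without that replicate. *Ebf2* was not tested in neurons.

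Whether the genotype effect differed between neurons and cortex was tested as the difference of both effects in 1 fit over 15 libraries. For 0 of 10 members was it called by edgeR, limma-trend or DESeq2, where 0.00667% of 15001 genes were called in each direction. At an unadjusted p below 0.05, by edgeR, it was higher in neurons for 2 members, *Ndnf* (0.94 on the log2 scale, SE 0.24, FDR = 0.623) and *Trp73* (0.78, SE 0.32, FDR = 0.941), and lower for 0, where 2.27% of genes were higher at that p. The calls of *Lhx5* and *Calb2* in cortex and of *Ndnf* in neurons are therefore not shown to be particular to either. For *Lhx5* the difference was -0.30 (SE 0.28) and for *Calb2* -0.17 (SE 0.20). Without Phf6-null cortex replicate 1, the difference was 1.08 (FDR = 0.789) for *Ndnf* and 0.51 (FDR = 1) for *Trp73*.

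Within litters, the Phf6-mutant mean was above the control for 5, 8 and 7 of the 10 members in cortex litters 1, 2 and 3, and for 6, 7 and 10 of 10 in neuron litters 4, 5 and 6. The neuron counts include *Ebf2*, which did not pass the filter there. Its mutant and control levels were 0.331 and 0 CPM in litter 4, 0 and 0 in litter 5, and 0.288 and 0.219 CPM in litter 6. No share over all genes was taken within litters, so these counts are descriptions only. *Lhx5*, *Calb2* and *Ebf3* were higher in all 3 cortex litters and in 2 of 3 neuron litters. *Trp73*, *Lhx1* and *Ndnf* were higher in all 3 neuron litters. No member was lower in all 3 litters of either tissue.

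**Figure D5:**
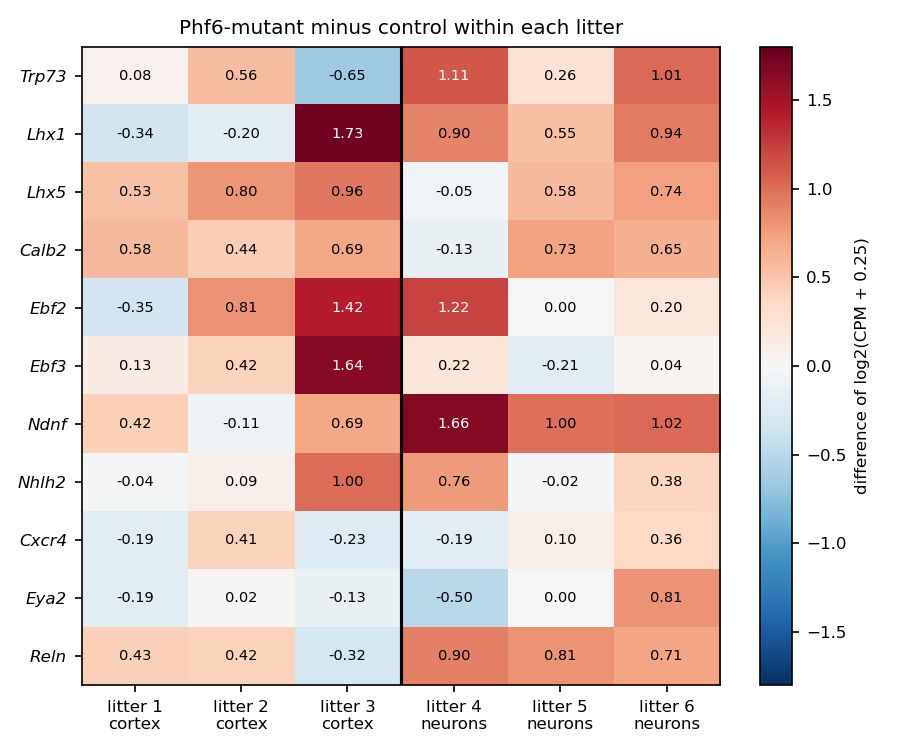
Difference between Phf6-mutant and control libraries within each litter, as log2 (CPM + 0.25), for the 10 marker genes and *Reln*, with the mean taken where a litter held 2 mutants. Red is higher and blue lower in mutants. *Ndnf* is red in all 3 neuron litters, *Lhx5*, *Calb2* and *Ebf3* in all 3 cortex litters, and the darkest cells of litter 3 are *Lhx1*, *Ebf3* and *Ebf2*.

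Genes around the set were read from further lists. Of 6 further genes linked to Cajal-Retzius cells (*Ebf1*, *Nhlh1*, *Mab21l1*, *Cacna2d2*, *Spock1* and *Thsd7b*), 0 were called in cortex and 0 in neurons. *Cacna2d2*, a calcium channel subunit, came closest in cortex at 66.04 CPM in controls and 88.0 CPM in Phf6-null cortex (log2 fold change 0.45, SE 0.09, FDR = 0.0505), and was called without Phf6-null replicate 1 (0.59, SE 0.09, FDR = 0.00718). It was 86.6 CPM in that replicate, inside the range of the other Phf6-null cortices. *Spock1*, a proteoglycan gene and the highest of the 6, had a log2 fold change of 0.12 (SE 0.08, FDR = 0.633) in cortex, of 0.15 (SE 0.10) without Phf6-null replicate 1, and of -0.12 (SE 0.07, FDR = 0.571) in neurons.

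For the chemokine axis, the ligand *Cxcl12* had a log2 fold change of 0.17 (SE 0.49, FDR = 0.947) in cortex, 0.19 (SE 0.65) without Phf6-null replicate 1, and -0.16 (SE 0.19, FDR = 0.842) in neurons. The second receptor *Ackr3* had log2 fold changes of -0.27 (SE 0.09, FDR = 0.277) in cortex, -0.25 (SE 0.10) without that replicate, and -0.10 (SE 0.16, FDR = 0.896) in neurons. As with *Cxcr4*, 0 of 2 were called in either tissue. Of the partners and relatives of *Eya2*, 0 of 6 tested were called in cortex and 0 of 5 in neurons. The most abundant were *Eya3* and *Dach1*, with log2 fold changes of 0.09 (SE 0.08) and 0.16 (SE 0.08) in cortex, of 0.19 (SE 0.08) and 0.16 (SE 0.10) without that replicate, and of -0.04 (SE 0.08) and 0.37 (SE 0.16) in neurons. *Trp53*, the p53 gene, had a log2 fold change of -0.10 (SE 0.08, FDR = 0.707) in cortex, 0.0058 (SE 0.08) without that replicate, and 0.04 (SE 0.07, FDR = 0.915) in neurons, and *Trp63* was at or near 0 in all groups, with at most 0.714 CPM in any library.

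The cortical hem, a birthplace of Cajal-Retzius cells, was read from 11 genes of WNT, BMP and R-spondin signalling and patterning, of which 0 were called in cortex and 0 of 8 in neurons. *Rspo3* and *Wnt5a* were the highest, with log2 fold changes of -0.09 (SE 0.10) and -0.03 (SE 0.11) in cortex, and of -0.19 (SE 0.11) and -0.03 (SE 0.13) without Phf6-null replicate 1. The median over the 11 hem genes was a log2 fold change of -0.09 with all libraries, with 3 of 11 positive, and of -0.47 without that replicate, with 2 of 11 positive and 0 called. Over all 14742 genes tested without that replicate the median was 0.0078. The summed level of the hem genes was 66.1 to 97.48 CPM in control cortex and 70.12 to 94.38 CPM in Phf6-null cortex, so it overlapped between genotypes and was 84.94 CPM in Phf6-null replicate 1. Of the 9 genes of the diencephalic list, 6 were tested in cortex and 4 in neurons. In cortex 6 of 6 had a positive log2 fold change, with a median of 1.05. Without Phf6-null replicate 1, 4 of 6 were positive and the median was 0.44. *Dbx1*, of this list, was called higher in cortex (log2 fold change 3.67, SE 0.54, FDR = 0.0136). Without Phf6-null replicate 1 its log2 fold change was 3.43 (SE 0.94, FDR = 0.279), no longer called. It also missed the threshold without control replicate 1 (FDR = 0.209) or control replicate 2 (FDR = 0.0816). *Lhx9* was called higher in neurons (0.82, SE 0.14, FDR = 0.0173), with 7.41 to 9.14 CPM in controls and 12.8 to 15.7 CPM in Phf6-deleted cultures, and missed the threshold without control replicate 2 (FDR = 0.103) or Phf6-deleted replicate 3 (FDR = 0.0823).

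Lists of other cell types gave 2 more calls. *Ttr*, a choroid plexus transporter gene, was higher in Phf6-deleted neurons (log2 fold change 2.85, SE 0.27, FDR = 0.000188), with 2.43 to 22.3 CPM against 0.403 to 2.12 CPM in controls, and the call of *Sst* was given above. Meningeal genes (led by *Col1a2* and *Col1a1*) summed to between 11.83 and 165.8 CPM in control and between 11.87 and 306.2 CPM in Phf6-null cortex, and choroid plexus genes to between 2.252 and 477.2 CPM and between 3.052 and 337.0 CPM. Of the meningeal, endothelial (led by *Kdr* and *Cldn5*), projection neuron (led by *Tubb3* and *Neurod6*) and progenitor genes (led by *Vim* and *Nes*), 0 were called in either tissue. In neurons the meningeal sum was 2.127 to 5.087 CPM in controls and 4.749 to 6.632 CPM in Phf6-deleted cultures, and the diencephalic sum 11.75 to 13.06 CPM and 17.64 to 21.51 CPM. Without Phf6-null replicate 1, *Cacna2d2* and *Reln* were the genes of the lists called in cortex. The part of these tissues in the members' levels was not tested.

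The genes whose profile over the 8 cortex libraries lay nearest to the mean profile of the members were *Ccnd1*, *Zfhx4*, *Mest*, *Rtl5* and *Rgs2*, with a root mean square difference between 0.0854 and 0.103 on the log2 scale. The members themselves lay between 0.192 and 0.619 from it. The 5 genes were chosen as the nearest, so their distances are small by that choice. Over the 7 neuron libraries the nearest were *Zfp575*, *Kcnh3*, *Gpr27*, *Rtn4r* and *Rtn4rl2*, at between 0.0607 and 0.108, with the 9 members with enough counts at between 0.208 and 0.508. These are descriptions over libraries that share litters and genotypes.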

How the data were processed

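PolyA RNA was sequenced as stranded paired-end libraries from 15 males, and the authors aligned the reads to mm10 with Rsubread and used featureCounts to count them over the exons of each Entrez gene, in the RefSeq annotation that comes with that tool. The deposited values are raw read counts per gene, not normalised, and 16858007 to 31157700 counts were present per library. Without a stated strand setting of the counting, overlapping and antisense genes cannot be separated. Of 26150 identifiers, 875 were not matched to a symbol, and pseudogenes (835), ribosomal RNA genes (35) and genes with predicted names (1273) were removed, which left 23132 genes. The 1029 rows without an identifier were left out.

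Genes with low counts were filtered with filterByExpr, and the counts were TMM-normalised and tested in edgeR 4.0.16 (R 4.3.3) by the quasi-likelihood test over all genes, with Benjamini-Hochberg adjustment and a threshold of 0.05. The genotype effects were fitted within each tissue with litter as a term, the tissue effect in control libraries, and the difference between the genotype effects over all 15 libraries. The pairing comes from the litter labels. Deviations from the group means of control and mutant libraries of the same litter correlated with r between -0.155 and 0.446, above 0.1 in 4 of 8 pairs. Litter 7 had no control, so its library enters the printed group means and SD, the filter and the normalisation, but not the genotype estimate. Neuron cultures and cortices came from different litters. Printed CPM and RPKM use library sizes scaled by TMM over all 15 libraries, and RPKM the merged exon length in the deposited table. The within-litter differences are of log2 (CPM + 0.25). Scripts were tested on simulated data. The alternatives were limma-trend (limma 3.58.1), DESeq2 1.42.0, RLE size factors, library totals, no filter, no litter term and leaving out each library.

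All 10 members and the other 2 genes followed throughout (*Phf6* and *Reln*) are named. Of each further list, genes past the threshold in a genotype effect are named, or else the 2 with the highest mean CPM, together with the 5 genes nearest to the members' mean profile in each tissue. Members and lists were chosen with earlier results of these data known.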

Additional observations from a re-analysis of the deposited data

Results flagged for a closer look

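A single library stood far from the rest of its group for several genes and lists, by Dixon's test in groups of 4 or 5 libraries. The test was made on 50 groups and chance alone flags about 1 in 20.

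In Phf6-null cortex replicate 1 this held for *Lhx1* at 25.25 CPM, *Ebf2* at 11.26 CPM, *Ebf3* at 56.92 CPM and *Nhlh2* at 69.74 CPM, each above the other 4 Phf6-null cortices. It also held for the summed level of the 10 members, at 272.3 CPM against 156 to 171.9 CPM, and for the 9 genes of the diencephalon and thalamic eminence, at 459.9 CPM. *Trp73*, *Lhx5*, *Calb2*, *Ndnf*, *Cxcr4* and *Eya2* were not flagged there by that test. *Lhx5* was nevertheless 27.18 CPM in that library and at most 13.66 CPM in the other 4 Phf6-null cortices.

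In Phf6-null cortex replicate 4 the choroid plexus genes summed to 337 CPM and the meningeal genes to 306.2 CPM, each far above the other Phf6-null cortices, and *Eya2* had its highest cortex level there (5.31 CPM). Projection neuron genes summed to 5515 CPM in Phf6-deleted neuron replicate 1, above the other 3 Phf6-deleted cultures at 5239 to 5260 CPM. Those 3 lay close together, so the flagged gap was small beside the level itself.

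The genotype effect on *Sst* differed between the tissues. It was 1.17 higher in neurons on the log2 scale (FDR = 0.0236, edgeR), with an FDR between 0.000487 and 0.352 as single libraries were left out, and below 0.05 in 7 of 15 such fits.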

How the results depend on the processing

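With the litter term left out (no replicate block), edgeR called 0 genes higher and 1 lower in cortex and 0 higher and 1 lower in neurons, no member among those higher (0 and 0), and 0 and 0 genes for the difference between tissues. The cause was not tested. With DESeq2 the counts were 156 higher and 43 lower in cortex, 47 higher in neurons, and 2 and 10 for the difference between tissues. Without the filter on low counts they were 95 and 19 in cortex, 178 and 119 in neurons (with 2 members higher, *Ndnf* and *Trp73*), and 2 and 3 for the difference. With library totals, 46 and 27 were called in neurons. A block on the replicate number, which is only a name across tissues (r 0.0272 to 0.0667, 0 of 3 pairs above 0.1, 2 of 3 neuron controls nearest to their own number), left 3644 genes higher and 3878 lower in control neurons, with 8 members lower.

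As single libraries were left out, the genes called in cortex ranged from 6 to 68 higher and from 1 to 13 lower, with 0 to 2 members. In neurons they ranged from 12 to 335 and from 4 to 159, with 1 to 2 members, and for the difference between tissues from 0 to 1 and from 0 to 3. The litter effect ranged from 16 to 586 genes (0 to 5 members) in cortex and from 488 to 2398 (0 to 3 members) in neurons. In the control comparison they ranged from 3038 to 3386 and from 3221 to 3735, with 7 to 9 members lower.

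Effects that were not called changed sign in some of these fits. In cortex the log2 fold change ranged from -0.23 to 0.32 for *Trp73*, -0.27 to 0.64 for *Lhx1*, -0.21 to 0.12 for *Cxcr4* and -0.26 to 0.069 for *Eya2*. In neurons it ranged from -0.083 to 0.13 for *Ebf3*, -0.057 to 0.24 for *Cxcr4* and -0.31 to 0.49 for *Eya2*, and between control tissues from -0.59 to 0.05032 for *Calb2* and -0.47 to 0.089 for *Ndnf*. The difference between tissues ranged from -0.33 to 0.13 for *Calb2*, -0.18 to 1.53 for *Ebf2*, -0.11 to 0.36 for *Nhlh2*, -0.059 to 0.30 for *Cxcr4* (-0.0081 without the litter term) and -0.24 to 0.55 for *Eya2*. Fits in which a gene's group was at 0 throughout gave no finite value and were left out.

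No called member changed sign under any alternative run. Counts of 0 to 9 for *Ebf2* and of 20 to 69 for *Lhx1*, *Lhx5* and *Eya2* limit what can be seen of these genes in culture, and 3 controls per tissue limit every comparison.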
